A study of Homo sapiens with 32 samples.

Results

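The TAM receptors TYRO3, AXL and MERTK, with their ligands GAS6 and PROS1 (protein S), were followed through drug-resistant and treatment-naive K-562 cells. The genes were chosen by symbol: each of the 5 had 1 array feature, and they are 5 of the 14884 genes measured. K-562 is a human chronic myeloid leukemia line driven by the BCR-ABL1 fusion kinase, which the drugs imatinib and nilotinib inhibit. The 32 whole-transcript arrays fall into 8 sets of 4 arrays, and the 4 arrays of a set are technical replicates of 1 RNA source. Imatinib resistance was raised to 0.5 µM in low-imatinib lines 1 and 2 and to 2 µM in high-imatinib lines 1 and 2, and nilotinib resistance to 0.1 µM in nilotinib lines 1 and 2. Naive S and naive K are untreated cells, and the meaning of these letters is not stated. They were counted as 2 sets, which may differ in technical respects only. All groups share the K-562 parent. Resistance was reached by raising the drug in steps, and the labels do not say whether a line is a clone. The growth text is identical for all samples and describes medium with neither drug, which leaves unclear if the resistant cells were on drug when collected.

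TAM receptors are tyrosine kinases of the cell surface. Their ligands are vitamin K-dependent proteins that bind phosphatidylserine on dying cells with a carboxylated (Gla) domain and the receptor with the other end. GAS6 binds all TAM receptors and AXL most tightly, while protein S, also an anticoagulant of plasma, acts through TYRO3 and MERTK. MERTK is best known from macrophages and the retinal pigment epithelium, which use it to engulf dying cells and shed photoreceptor tips. AXL is widely studied as a receptor that cancer cells raise under kinase inhibitors, chronic myeloid leukemia cells included. The arrays report RNA; receptor protein, shed receptor and phosphorylation were not measured.

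The genes lie on different chromosomes of GRCh38.p14: AXL at chr19:41219223-41261766, MERTK at chr2:111898607-112029561, TYRO3 at chr15:41559212-41583589, GAS6 at chr13:113820549-113864076 and PROS1 at chr3:93873051-93973896. Promoter windows from RefSeq (GRCh38.p14), 250 bases before to 50 after an annotated start, are shown for AXL and MERTK, the receptors that differed most between sets, and for GAS6, whose window overlaps that of a neighbouring transcript described further on. AXL has a pair of annotated starts with unlike sequences, and both are given. The AXL windows are chr19:41218973-41219272 and chr19:41226505-41226804 and the MERTK window is chr2:111898357-111898656, all on the plus strand. The GAS6 window is chr13:113864027-113864326 on the minus strand. Each is printed 5′ to 3′ on the gene's strand, with capitals for matches on either strand to GGGCGG (GC box, the site of SP1 and SP3), GCGTG (dioxin response core, read by AHR with ARNT) or GGAATG (TEAD).
AXL start 1: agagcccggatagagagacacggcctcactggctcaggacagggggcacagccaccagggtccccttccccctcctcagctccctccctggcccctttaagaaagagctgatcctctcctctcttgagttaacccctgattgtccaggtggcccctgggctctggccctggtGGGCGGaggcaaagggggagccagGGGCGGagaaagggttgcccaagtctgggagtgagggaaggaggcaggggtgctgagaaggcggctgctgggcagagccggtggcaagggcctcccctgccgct
AXL start 2: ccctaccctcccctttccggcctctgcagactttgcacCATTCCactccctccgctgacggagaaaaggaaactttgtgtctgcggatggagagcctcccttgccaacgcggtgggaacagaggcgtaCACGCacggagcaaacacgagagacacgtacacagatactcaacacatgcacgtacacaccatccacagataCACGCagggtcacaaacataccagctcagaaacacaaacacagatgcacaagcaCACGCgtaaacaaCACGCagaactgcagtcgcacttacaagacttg
MERTK: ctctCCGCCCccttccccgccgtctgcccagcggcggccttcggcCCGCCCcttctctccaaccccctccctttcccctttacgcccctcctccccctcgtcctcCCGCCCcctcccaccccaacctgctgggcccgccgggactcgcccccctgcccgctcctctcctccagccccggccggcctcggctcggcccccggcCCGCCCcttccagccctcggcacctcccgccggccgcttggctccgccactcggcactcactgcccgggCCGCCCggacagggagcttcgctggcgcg
GAS6: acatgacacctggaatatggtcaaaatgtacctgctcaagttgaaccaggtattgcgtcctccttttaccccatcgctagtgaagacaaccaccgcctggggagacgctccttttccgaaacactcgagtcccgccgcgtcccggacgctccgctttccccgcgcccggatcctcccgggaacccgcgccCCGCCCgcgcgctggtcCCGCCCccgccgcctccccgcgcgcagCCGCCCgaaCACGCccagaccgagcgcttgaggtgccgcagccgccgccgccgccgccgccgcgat

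The MERTK window held 5 GC boxes in 78.3% GC, and the first AXL window held 2 in 66.0% GC. The second AXL window had no GC box but 4 dioxin response cores and 1 TEAD match. GAS6 had 3 GC boxes and 1 dioxin response core. Of the members not printed, PROS1 had 2 GC boxes, the first TYRO3 start 3 GC boxes and 1 match to TGANTCA (AP-1), and the second TYRO3 start 1 dioxin response core. Among 35116 promoter windows of that length, 45.0% held a GC box, 36.5% a dioxin response core, 14% a TEAD match and 7.71% an AP-1 match. The GATA motif AGATAA, searched in the same way and held by 10.3% of windows, had no match in these members. The motif AGGTCA, bound by LXR and RXR and held by 13.8% of windows, had none either. These are letter matches, and binding was not measured.

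Values are the deposited log2 intensities, called levels here. The log base was inferred from their range (1.24 to 14.2), since no label states it. Array medians lay between 5.85 and 6.11, and arrays of 1 set correlated at r of 0.952 to 0.991 over genes. No detection calls were used, but no member was among the dimmest 40% of genes by mean level. That rank does not show detection. Lymphoid markers averaged 6.17 to 6.35 in the lines and 6.47 to 6.58 in the naive sets. TYRO3 set means (6.37 to 6.68) and MERTK in naive cells (6.68 and 6.73) lie close to those levels. AXL in high-imatinib line 2 (6.31) and the lower GAS6 set means (from 6.25 in high-imatinib line 1) do so too. Whether such levels are above background was not tested, so flat values and fold differences there are uncertain. MERTK varied most of the 5: its set means spanned 1.99, more than in 96.7% of genes. The span was 1.71 for AXL, 1.49 for PROS1 and 0.96 for GAS6. TYRO3 hardly varied, with a span of 0.31 that exceeded only 4.68% of genes. Within sets the mean SD of the 5 genes ran from 0.15 to 0.20.

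**Figure D1:**
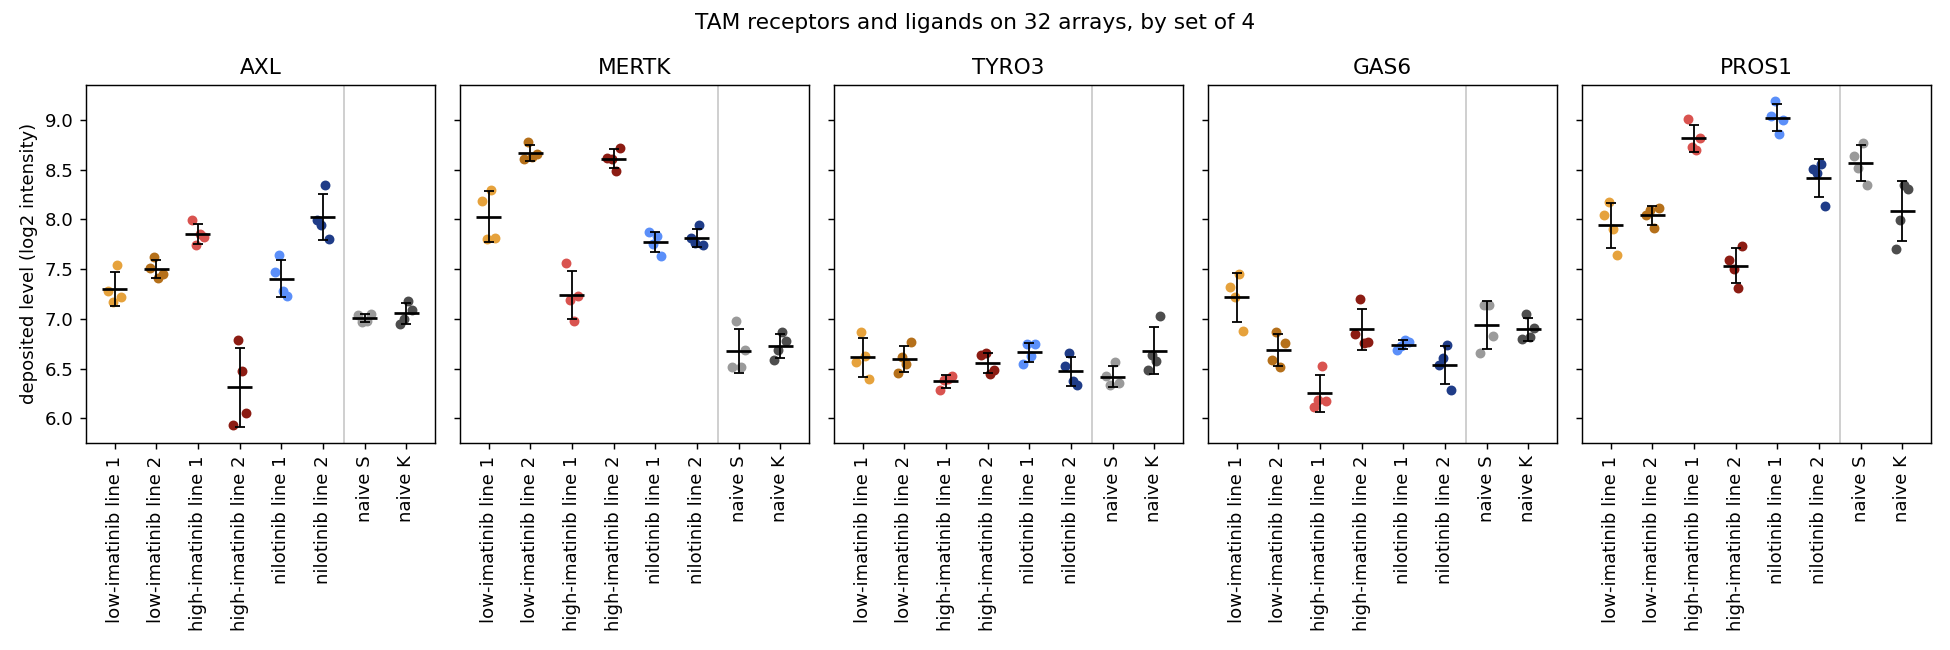
Level (log2 intensity) of each gene on the 32 arrays, by set of 4; points are arrays, bars the mean and SD of a set. All MERTK arrays of the 6 resistant lines are above its naive arrays. AXL means are above the naive means in 5 lines, with 1 array of low-imatinib line 1 inside the naive range, and high-imatinib line 2 is below it.

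MERTK, the engulfment receptor of macrophages, stood higher in all 6 resistant lines than in both naive sets. In the low-imatinib lines it averaged 8.03 ± 0.26 in line 1 and 8.67 ± 0.08 in line 2 (SD, n = 4 arrays, here and for the set means that follow). High-imatinib line 1 had 7.24 ± 0.24 and line 2 had 8.61 ± 0.09. Nilotinib line 1 had 7.77 ± 0.10 and line 2 had 7.82 ± 0.09, and the naive sets had 6.68 ± 0.22 (S) and 6.73 ± 0.12 (K). Low-imatinib line 2 and high-imatinib line 2 were thus 3.90-fold and 3.74-fold above the naive mean, whereas high-imatinib line 1 was 1.45-fold above it. The other lines lay between 2.10-fold and 2.50-fold.

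On single arrays, MERTK ran from 6.98 to 8.78 in resistant cells (median 7.85) and from 6.52 to 6.98 in naive cells (median 6.69). All 24 resistant arrays were above all 8 naive arrays, which holds for 3.19% of genes, but the gap was only 0.0015, between an array of high-imatinib line 1 and an array of naive S. Means of the 6 lines above both naive means were found in 17% of genes. In the limma fit to the 32 arrays, which sees technical spread only, MERTK was higher in each of the 12 pairs of a line and a naive set (largest adjusted p = 0.0008). That was true of 5.07% of genes, while 45.8% of tests passed in either direction over the same 12 pairs.

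The fit that takes the lines as replicates has 8 set means and 4 residual degrees of freedom, and there MERTK missed the threshold. All resistant lines minus naive came to 1.32 ± 0.34 (SE; 95% interval 0.50 to 2.13; adjusted p = 0.0718), a 2.49-fold difference. In that comparison 553 genes, or 3.72%, passed at an adjusted p of 0.05, 478 of them higher and 75 lower in resistant cells, and 0 of the 5 members were among them. The high-imatinib lines are the pair that differ most in MERTK, and the difference was 1.47 without line 1 and 1.20 without line 2. Either fit leaves 1 set in that group, so the spread between those lines is not counted, and the SE fell to 0.18. Without naive K the difference was 1.34, with an SE of 0.51. An axis of technical variation, taken as the first component of array deviations from their set means, also moved with the groups, with mean scores of -2.13 to 21.2 in the lines and -25.1 and -20.8 in the naive sets. With this axis taken out the MERTK difference was 1.08 (adjusted p = 0.255).

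By resistance, MERTK was 1.64 ± 0.42 higher in the low-imatinib lines than in naive cells (3.12-fold, adjusted p = 0.111). The difference was 1.22 ± 0.42 in the high-imatinib lines (2.33-fold, adjusted p = 0.257) and 1.09 ± 0.42 in the nilotinib lines (2.13-fold, adjusted p = 0.136). All 3 comparisons share the naive sets. Each 95% interval lay above 0, with unadjusted p of 0.0059, 0.0230 and 0.0361, and none passed after adjustment. The high-imatinib difference was 1.90 without line 1 and 0.54 without line 2. Each of these fits has 1 high-imatinib set, so the spread between those lines is not counted. Genes past the threshold numbered 0 of 14884 (0%) for low imatinib, with 3215 at an unadjusted p under 0.05. The count was also 0 (0%) for high imatinib, with 2266 at an unadjusted p under 0.05, and 66 (0.443%) for nilotinib, with 4755 at an unadjusted p under 0.05. In the nilotinib comparison MERTK ranked 3959th of 14884 genes by p. No member passed in any of them.

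AXL, the TAM receptor with the tightest hold on GAS6, split the high-imatinib lines to either side of naive cells. High-imatinib line 1 had 7.99, 7.75, 7.86 and 7.83 on its 4 arrays, and high-imatinib line 2 had 5.93, 6.79, 6.48 and 6.05. The 8 naive arrays ran from 6.95 to 7.18, with a median of 7.02. All arrays of line 1 were therefore above, and all arrays of line 2 below, every naive array. Against the naive mean, line 1 was 1.77-fold higher and line 2 was 1.64-fold lower. The level of line 2 is close to that of the lymphoid markers, so the size of its fall is uncertain. The arrays average over all cells, so a change in every cell and a change in a share of the cells cannot be told apart.

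In the other resistant lines AXL was above both naive means. Nilotinib line 2 had the highest level at 8.02 ± 0.23, or 1.99-fold over the naive mean, and nilotinib line 1 had 7.40 ± 0.19. The low-imatinib lines had 7.30 ± 0.17 in line 1 and 7.50 ± 0.09 in line 2. The lines with the most AXL were also those with high TYROBP, a signalling adaptor of myeloid cells and 1 of the 9 macrophage and monocyte markers measured. TYROBP had 9.12 in high-imatinib line 1, 8.87 in nilotinib line 2 and 5.46 to 5.50 in the other lines, against 5.84 in both naive sets. TYROBP was picked after its values were seen. Among the lines, VSIG4 (9.80 and 6.94) and LYZ (7.45 and 8.35) were also highest in high-imatinib line 1 and nilotinib line 2. CD68 was not, with 9.31 in nilotinib line 1 and 8.72 in nilotinib line 2. CD14, CD163, CSF1R, MSR1 and MARCO each had set means within 0.91 of each other. The part of these markers in the AXL difference was not tested. Of 24 resistant arrays, 19 were above all naive arrays and 4, those of high-imatinib line 2, were below them. Over the 12 pairs of a line and a naive set, AXL was higher in the line in 8, lower in 2 and past neither side in 2, both of them with low-imatinib line 1. Over all genes 45.8% of tests of these pairs passed in either direction, in a fit that sees technical spread only.

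With lines as replicates, no AXL difference from naive cells passed. It was 0.37 ± 0.38 over all lines (adjusted p = 0.514), 0.37 ± 0.46 for low imatinib (adjusted p = 0.651), 0.05 ± 0.46 for high imatinib (adjusted p = 0.961) and 0.68 ± 0.46 for nilotinib (adjusted p = 0.322). The high-imatinib value rests on which line is in it, being -0.72 without line 1 and 0.82 without line 2, and -0.10 with the technical axis taken out.

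TYRO3, the TAM receptor best known from the nervous system, did not differ between groups beyond its spread. Its line means ran from 6.37 in high-imatinib line 1 to 6.67 in nilotinib line 1, against 6.42 in naive S and 6.68 in naive K. All resistant lines minus naive came to -0.00 ± 0.12, with a 95% interval of -0.29 to 0.29 (adjusted p = 0.987). That interval holds neither the MERTK estimate nor its lower bound of 0.50, although no test between the receptors was made. Of the 12 pairs of a line and a naive set, 11 passed in neither direction, where 45.8% of such tests passed over all genes. A feature of the pseudogene TYRO3P had set means of 4.24 to 4.77. TYRO3 and PROS1, which also has a pseudogene (PROS2P), are uncertain as far as near-identical copies share their probes.

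GAS6, the ligand of all TAM receptors, was lowest in high-imatinib line 1 and highest in low-imatinib line 1. High-imatinib line 1 had 6.25 ± 0.19 and low-imatinib line 1 had 7.22 ± 0.25, against 6.94 ± 0.24 in naive S and 6.89 ± 0.12 in naive K. The remaining lines had 6.54 to 6.89. Thus 4 line means were below both naive means, 1 was above them and 1 was between them. All lines minus naive gave -0.19 ± 0.21 (adjusted p = 0.534), and the 3 resistances gave 0.03 (low imatinib), -0.34 (high imatinib) and -0.28 (nilotinib), with adjusted p of 0.455 or more.

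PROS1, the gene of protein S, moved in both directions among the lines. Nilotinib line 1 had 9.02 ± 0.14 and high-imatinib line 1 had 8.81 ± 0.14, the levels above both naive sets. High-imatinib line 2 had the lowest level at 7.53 ± 0.17, and low-imatinib lines 1 and 2 had 7.94 ± 0.23 and 8.04 ± 0.09. Nilotinib line 2, at 8.42 ± 0.19, lay between naive S at 8.57 ± 0.18 and naive K at 8.09 ± 0.30. Over all lines PROS1 differed from naive cells by -0.03 ± 0.34 (adjusted p = 0.957). By resistance the differences were -0.33 for low imatinib, -0.15 for high imatinib and 0.39 for nilotinib, none past the threshold (adjusted p of 0.511 or more). The directions were not stable: high imatinib gave -0.79 without line 1 and 0.49 without line 2, and nilotinib gave -0.26 with the technical axis taken out.

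**Figure D2:**
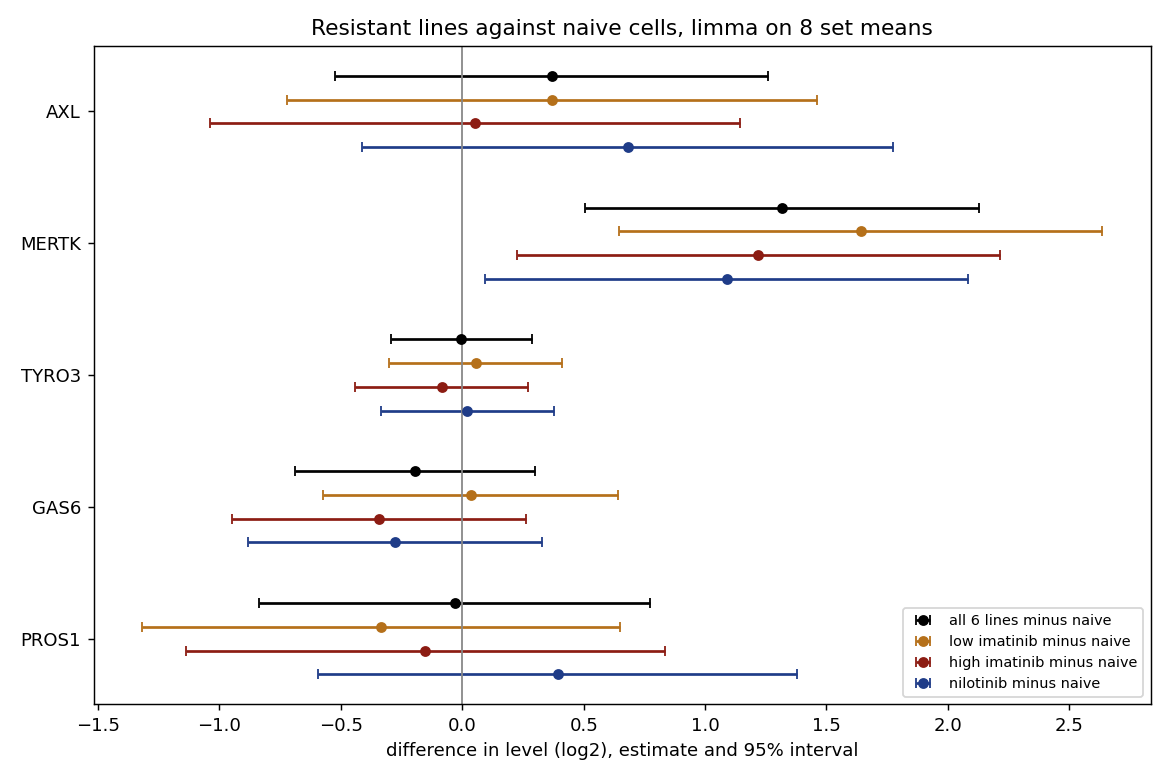
Difference in level (log2) between resistant and naive cells for each gene, for all 6 lines and for each resistance, as limma estimates from 8 set means with 95% intervals. The MERTK intervals lie above 0 (1.32, from 0.50 to 2.13, over all lines), those of the other genes span 0, and no adjusted p is under 0.05.

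The resistances were also set against each other, a comparison of dose (high against low imatinib) and of drug. No member passed in any of these, with adjusted p of 0.757 or more. Genes past the threshold numbered 0 (0%) each for high against low imatinib, nilotinib against low imatinib and nilotinib against high imatinib, and 722, 1028 and 943 genes had an unadjusted p under 0.05. The largest member difference was in PROS1, higher by 0.73 ± 0.42 in nilotinib than in low-imatinib lines (95% interval -0.26 to 1.71, adjusted p = 0.782). For MERTK the intervals were -1.42 to 0.57 for high minus low imatinib and -1.55 to 0.44 for nilotinib minus low imatinib. Differences of over 2-fold in favour of low imatinib thus lie within them.

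Lines of the same resistance differed from each other, most of all the high-imatinib pair. These tests set a difference against technical spread on 32 arrays (24 residual degrees of freedom), so they compare those RNA sources and say nothing of how lines vary in general. High-imatinib line 2 was lower than line 1 by 1.54 ± 0.13 in AXL (2.91-fold, adjusted p = 2.63e-11) and by 1.28 ± 0.13 in PROS1 (2.42-fold, adjusted p = 1.06e-09). It was higher by 1.37 ± 0.12 in MERTK (2.58-fold, adjusted p = 2.13e-11) and by 0.64 ± 0.13 in GAS6 (1.56-fold, adjusted p = 0.00014). So RNA of MERTK and GAS6 was higher in line 2, and RNA of AXL and PROS1 was higher in line 1. AXL in line 2 and GAS6 in line 1 are close to lymphoid marker levels, so their fold differences are uncertain. In this pair 4 of the 5 members passed, where 33% of all genes did.

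The low-imatinib lines differed less. Line 2 was higher than line 1 in MERTK by 0.64 ± 0.12 (adjusted p = 0.00015) and lower in GAS6 by 0.53 ± 0.13 (adjusted p = 0.0029), so 2 members passed where 18.7% of genes did. Nilotinib line 2 was higher than line 1 in AXL by 0.62 ± 0.13 and lower in PROS1 by 0.61 ± 0.13 (adjusted p = 0.0005 for each), again 2 members, where 27.6% of genes passed. MERTK, by contrast, differed between the nilotinib lines by 0.04 ± 0.12 (adjusted p = 0.832). Naive K was lower than naive S in PROS1 by 0.48 ± 0.13 (adjusted p = 0.0154), the 1 member that passed where 12.4% of genes did. This PROS1 call was lost without array 1 of naive K (adjusted p = 0.0868) or array 3 of naive S (adjusted p = 0.0586). TYRO3 passed in none of the 4 pairs.

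**Figure D3:**
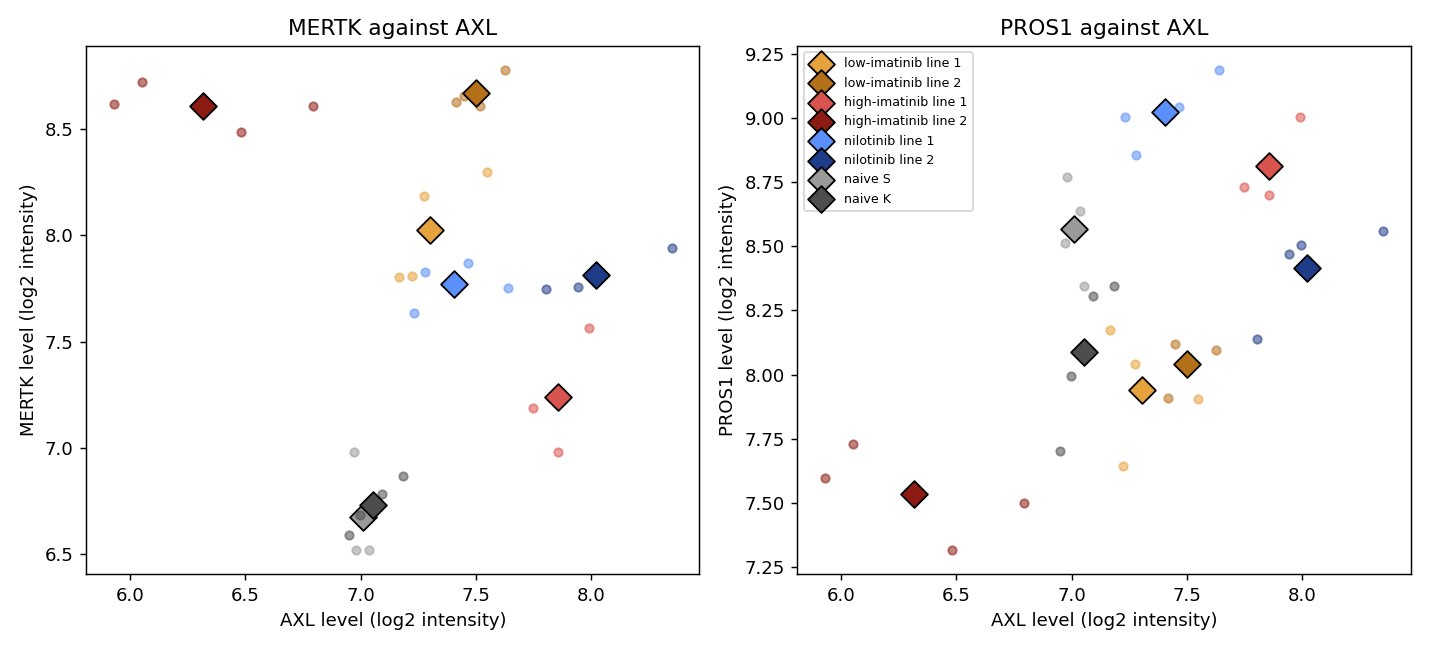
MERTK (left) and PROS1 (right) against AXL, levels in log2 intensity; small points are arrays and diamonds the means of the 8 sets. High-imatinib line 2 is alone at low AXL (6.31) with high MERTK (8.61) and low PROS1 (7.53), and the naive sets lie together at MERTK 6.68 and 6.73.

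When the 8 sets were ordered by level, most neighbours in the order did not differ beyond technical spread. Over the 5 genes 7 of 35 neighbouring steps passed. Over all genes, each in its own order, 6.67% of neighbouring steps passed. With the technical axis taken out and the order kept as it was, 11 of the 35 steps passed, counted in either direction. The share over all genes is not given for that setting. For MERTK the order from low to high was naive S, naive K, high-imatinib line 1, nilotinib line 1, nilotinib line 2, low-imatinib line 1, high-imatinib line 2 and low-imatinib line 2. Its steps from naive K to high-imatinib line 1 (0.51), from there to nilotinib line 1 (0.53) and from low-imatinib line 1 to high-imatinib line 2 (0.58) passed, which divides the order into 4 runs. AXL ran from high-imatinib line 2 through naive S, naive K, low-imatinib line 1, nilotinib line 1, low-imatinib line 2 and high-imatinib line 1 to nilotinib line 2. Here the first step (0.69, adjusted p = 0.0001) and the step from low-imatinib line 2 to high-imatinib line 1 (0.35, adjusted p = 0.0405) passed.

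PROS1 ran from high-imatinib line 2 through low-imatinib line 1, low-imatinib line 2, naive K, nilotinib line 2, naive S and high-imatinib line 1 to nilotinib line 1. Its first step (0.41, adjusted p = 0.0248) and the step from naive K to nilotinib line 2 (0.33, adjusted p = 0.0353) passed. GAS6 ran in the order high-imatinib line 1, nilotinib line 2, low-imatinib line 2, nilotinib line 1, naive K, high-imatinib line 2, naive S and low-imatinib line 1 with no neighbouring step past the threshold. TYRO3, from high-imatinib line 1 through naive S, nilotinib line 2, high-imatinib line 2, low-imatinib line 2, low-imatinib line 1 and nilotinib line 1 to naive K, had none either.

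Pairs of members were set against each other over the 8 set means, as a description of sets that share a parent line, with no test. AXL and MERTK had r of -0.12 over 8 sets and -0.65 over the 6 lines. PROS1 went with AXL (r of 0.61 and 0.68) and against MERTK (-0.49 and -0.80). GAS6 went against AXL (-0.62 and -0.58) and with TYRO3 (0.54 and 0.75). High-imatinib line 2 lies alone at low AXL, as the plot of MERTK and PROS1 against AXL shows.

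Genes with the most similar patterns were ranked by Pearson r over the 8 set means among the genes spanning at least 1 on the log2 scale, 3499 in all. The highest of so many r values over 8 related sets can be large through the ranking alone, and none was tested. Nearest to AXL was TFPI (r = 0.951), the tissue factor pathway inhibitor, for which protein S is a cofactor in plasma. TFPI had 7.24 in high-imatinib line 2 and 9.54 in nilotinib line 2, against 8.37 in naive S and 8.09 in naive K. After it came STK17B (0.938), a kinase of the death-associated family, and LMBRD1 (0.934), a lysosomal protein of cobalamin export. Nearest to MERTK were SRSF6 (0.997), a splicing factor, FHDC1 (0.992), a formin, and CFL2 (0.987), the muscle cofilin. SRSF6 had 8.75 to 9.60 in the lines, with high-imatinib line 1 lowest as for MERTK, against 8.43 in naive S and 8.42 in naive K.

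Nearest to PROS1 were ADGRE5 (0.920), the adhesion receptor CD97, then DAPK1 (0.919), another death-associated kinase, and SP100 (0.899), of nuclear bodies. DAPK1 had 9.29 in high-imatinib line 1 and 6.58 in high-imatinib line 2, against 8.51 in naive S and 8.31 in naive K. Nearest to GAS6 were MIR4668 (0.935), a microRNA gene, TRMT112 (0.919), a partner of methyltransferases, and SUGCT (0.915), an enzyme of glutarate metabolism. TYRO3 was nearest to SCARNA15 (0.922), HNRNPA1 (0.867) and TERC (0.833), of which the first and last are noncoding RNAs and HNRNPA1 encodes an RNA-binding protein. With a TYRO3 span of 0.31 these r values say even less than those of the other members.

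The genes around each member were looked at, 5 measured neighbours on either side, since K-562 lines can gain or lose chromosome segments. Differences from the naive mean were used, with no test. In high-imatinib line 1 AXL was 0.82 higher, with its 10 neighbours from -0.58 to 0.49. In high-imatinib line 2 AXL was -0.72 from naive, outside its neighbours' range of -0.12 to 0.93. AXL stood apart from the genes beside it in both lines that split, but not in the others. There 8 of 10 neighbours had a larger difference than AXL in low-imatinib line 1, 8 in nilotinib line 1, 4 in low-imatinib line 2 and 1 in nilotinib line 2, with neighbour medians of 0.31 to 0.56.

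MERTK exceeded all 10 of its neighbours in low-imatinib line 1 (1.32, neighbours up to 0.74), low-imatinib line 2 (1.96, up to 0.93) and high-imatinib line 2 (1.90, up to 0.98). In high-imatinib line 1 its 0.54 was passed by 3 neighbours, and in nilotinib lines 1 and 2 by 2 and 1. PROS1 lay outside its neighbours' range in low-imatinib line 1 (-0.39, lowest neighbour -0.30) and nilotinib line 2 (0.09, highest neighbour 0.01). In high-imatinib line 2 (-0.79) it was below all of its neighbours, the lowest of which was at -0.31. GAS6 in high-imatinib line 1 (-0.66) was likewise below neighbours that reached down to -0.45. The lowest of these is GAS6-DT, the transcript beside GAS6.

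**Figure D4:**
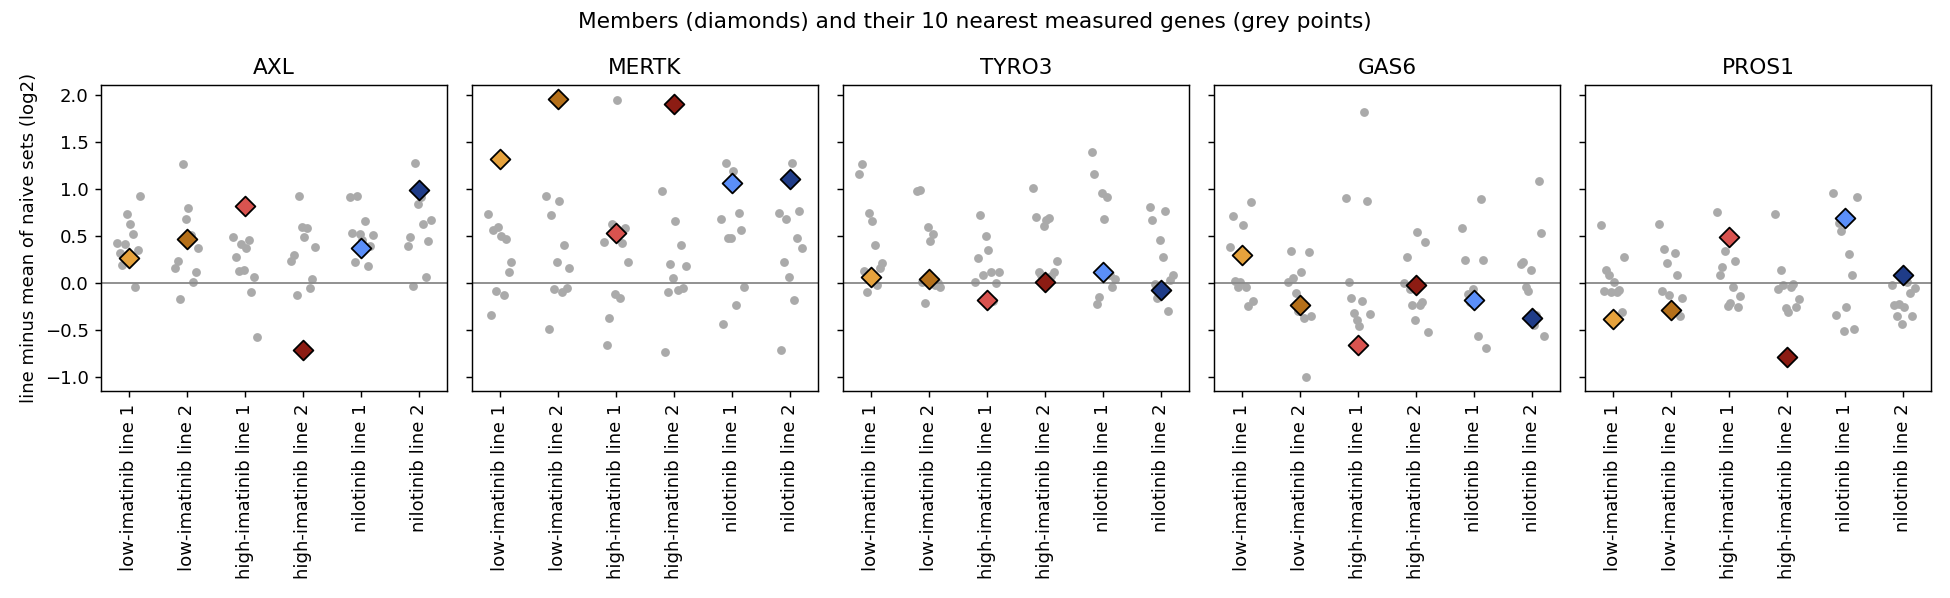
Difference of each resistant line from the mean of the naive sets (log2) for each gene (diamonds) and its 10 nearest measured genes (grey points). AXL lies outside its neighbours' range in both high-imatinib lines (0.82 and -0.72), and MERTK lies above it in both low-imatinib lines and high-imatinib line 2.

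GAS6-DT, a long noncoding RNA, is transcribed away from GAS6 at chr13:113864177-113866832. It was singled out after its values were seen. The starts of the pair are 101 bases apart, so that their promoter windows share 200 bases on opposite strands. These are the last 200 bases of the GAS6 window printed above. GAS6-DT had 6.19 ± 0.51 in low-imatinib line 1 and 6.11 ± 0.09 in high-imatinib line 2, where GAS6 was high among the lines. It had 5.11 ± 0.13 in high-imatinib line 1 and 5.12 ± 0.29 in nilotinib line 2, where GAS6 was lowest. The naive sets had 5.67 ± 0.10 (S) and 5.46 ± 0.41 (K).

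Over the 8 set means r between GAS6 and GAS6-DT was 0.826 (Spearman's rho 0.810), and over the 6 lines it was 0.883. GAS6-AS1, which overlaps GAS6 on the other strand at chr13:113815610-113842841, has 2 features, with r of 0.365 and -0.01 against GAS6. GAS6-DT is dim, brighter than 23.1% of the features with a gene symbol by mean level. How the array treats strand is not stated in the sources used here.

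**Figure D5:**
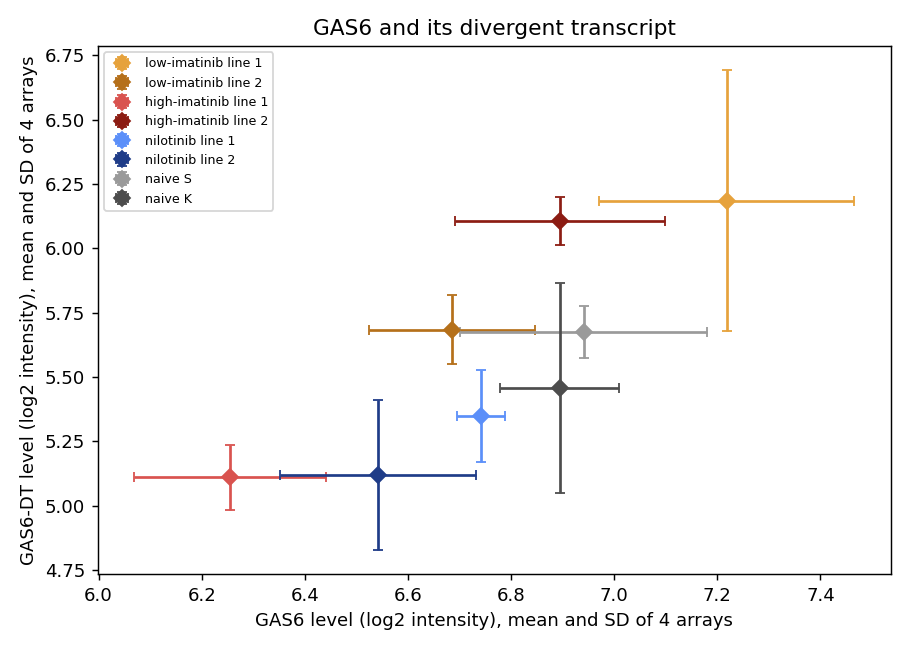
GAS6-DT against GAS6, levels in log2 intensity, mean and SD of 4 arrays for each of the 8 sets. High-imatinib line 1 is lowest in both (GAS6 6.25, GAS6-DT 5.11), and low-imatinib line 1 is highest in both (7.22 and 6.19). Low-imatinib line 2 has GAS6 below both naive sets (6.69) but GAS6-DT slightly above them (5.68).

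The wider pathway was read from 8 gene lists, with counts from the fit to set means over all resistant lines against naive cells. The median difference of all genes there was -0.03, and 3.72% of genes passed. Of the 134 list members measured, 4 rose and 0 fell, which is near the share of all genes. An unadjusted p under 0.05 was found for 26.9% of list members and 29.8% of all genes. Among other receptor tyrosine kinases (37 of 47 measured), 1 rose and 0 fell, with a median of -0.07. The riser was RYK, a Wnt receptor, at 7.36 to 7.55 in the lines against 6.99 in naive S and 6.63 in naive K, a difference of 0.61 ± 0.12 (adjusted p = 0.0483). Among vitamin K cycle enzymes and other Gla proteins (12 of 16 measured), 0 passed and the median was -0.18. FURIN, the proprotein protease, was 1.19 higher (adjusted p = 0.0799) and GGCX, the carboxylase that modifies GAS6 and protein S, 0.32 higher (adjusted p = 0.102).

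Of genes that expose phosphatidylserine on the cell surface, 5 of 15 were measured and 0 passed, with a median of 0.04. PLSCR1, a phospholipid scramblase, differed by 0.59 (adjusted p = 0.230) and TMEM30B, a flippase subunit, by -0.22 (adjusted p = 0.275). Of other phosphatidylserine receptors and engulfment genes (21 of 29 measured), 1 rose and 0 fell, with a median of -0.07. It was ELMO2, an engulfment adaptor that works with DOCK proteins upstream of RAC1, at 7.29 to 7.89 in the lines against 6.81 in naive S and 6.60 in naive K (0.94 ± 0.15, adjusted p = 0.0352). Of genes for receptor shedding and turnover, 6 of 15 were measured and 0 passed, with a median of 0.10. ADAM17, a protease that sheds MERTK, was 0.70 higher (adjusted p = 0.102), and RHBDF2, which carries ADAM17 to the surface, differed by -0.17 (adjusted p = 0.389).

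Of signalling adaptors and effectors below TAM receptors (25 of 40 measured), 1 rose and 0 fell, with a median of 0.24. It was NCK2, an SH2 and SH3 adaptor, at 7.27 to 7.98 in the lines against 6.53 in naive S and 6.48 in naive K (0.98 ± 0.14, adjusted p = 0.0335). Of factors reported upstream of AXL (25 of 27 measured), 1 rose and 0 fell, with a median of 0.19. SP3, which binds GC boxes such as those capitalised in the first AXL window, had 7.86 to 8.11 in the lines against 7.39 in naive S and 7.47 in naive K (0.53 ± 0.11, adjusted p = 0.0483). Of nuclear receptors and partners upstream of MERTK only 3 of 10 were measured and 0 passed, with a median of -0.02. PPARD was 0.76 higher (adjusted p = 0.0827) and KLF4 differed by -0.06 (adjusted p = 0.818).

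AHR, which reads the dioxin response core found 4 times in the second AXL window, is on the list of factors upstream of AXL. It had 6.03 and 5.41 in low-imatinib lines 1 and 2, 7.40 and 5.56 in high-imatinib lines 1 and 2, and 10.7 and 6.63 in nilotinib lines 1 and 2, against 10.3 in naive S and 9.57 in naive K. The low-imatinib difference of -4.24 ± 1.23 did not pass (adjusted p = 0.131). Nilotinib line 1, with AHR near the naive sets, had AXL at 7.40, and nilotinib line 2, with less AHR, had AXL at 8.02. The high-imatinib pair ran the other way: line 1 had more AHR than line 2 and also more AXL (7.85 against 6.31). Low-imatinib line 1 had more AHR than line 2, with AXL at 7.30 against 7.50, which did not differ beyond technical spread. Whether AHR bears on AXL was not tested.

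Within each single resistance, 0 members of these 8 lists passed against naive cells; 26, 28 and 36 of the 134 measured list members had an unadjusted p under 0.05 for low imatinib, high imatinib and nilotinib. These are 19.4%, 20.9% and 26.9% of the list members, beside 21.6%, 15.2% and 31.9% of all genes. The list members with the smallest unadjusted p repeated much of the above. NCK2 had 0.89 for low imatinib, 1.23 for high imatinib and 0.82 for nilotinib (adjusted p = 0.0829, 0.112 and 0.0606), ELMO2 had 0.75, 1.09 and 0.99 (adjusted p = 0.104, 0.126 and 0.0567), and RYK had 0.57, 0.56 and 0.71 (adjusted p = 0.115, 0.180 and 0.0592). Closest to the threshold for low imatinib was LRP1, an endocytic receptor for dying cells, at 0.83 (adjusted p = 0.0711). For high imatinib it was NCK2, followed by ELMO2. EPAS1, the hypoxia factor, had -1.29 for high imatinib (adjusted p = 0.131) and -1.02 for nilotinib (adjusted p = 0.0638).

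Markers of K-562 and of other cell types were measured in part, with mean levels over each list. K-562 markers of erythroid and megakaryocytic cells (GATA1, TAL1, LMO2, KLF1, EPOR and GFI1B, 6 of 17) had 7.79 to 8.37 in the lines and 7.41 to 7.68 in the naive sets, and 2 of them, TAL1 and GFI1B, rose in all lines against naive cells. Macrophage and monocyte markers (9 of 16), of interest since macrophages use MERTK, had 5.70 to 7.15 in the lines and 6.17 to 6.37 in the naive sets. None of these 9 passed in all lines against naive cells, but single genes stood high in single lines, and those named here were chosen after their values were seen. TYROBP was high in the lines with the most AXL, as given above. VSIG4, a complement receptor of macrophages, had 9.80 in high-imatinib line 1 and 5.88 to 6.94 in the other lines, against 6.14 in naive S and 6.29 in naive K. CD68, a lysosomal protein, had 10.3 in high-imatinib line 1 and 6.88 to 9.31 in the other lines, against 8.32 in naive S and 8.49 in naive K. LYZ, the lysozyme gene, had 8.35 in nilotinib line 2 and 5.90 to 7.45 in the other lines, against 7.55 in naive S and 7.95 in naive K. The other 5, CD14, CD163, CSF1R, MSR1 and MARCO, had set means within 0.91 of each other for each gene. Lymphoid (5 of 12), fibroblast (3 of 9), endothelial (5 of 7) and epithelial (6 of 7) markers had 6.17 to 6.35, 5.00 to 5.20, 5.95 to 6.35 and 6.85 to 7.71 in the lines. Their naive ranges were 6.47 to 6.58, 5.37 to 5.38, 6.19 to 6.36 and 7.51 to 7.72. The part of other cells in the MERTK and AXL differences was not tested.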

How the data were processed

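RNA of K-562 cells was measured on 32 GeneChip arrays in 8 sets of 4. The deposited values are log2 intensities per feature (log base inferred), made by the authors with Transcriptome Analysis Console 4.0, per the submitters' processing notes; the sources used here do not give the normalization. Of 53617 features, 16098 had 1 gene symbol and 37519 were unnamed and used in 1 alternative. The brightest feature stood for each of 779 genes with several, leaving 14884 genes.

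Arrays of a set were averaged, and limma 3.58.1 (R 4.3.3) was fitted to 8 set means with 1 mean per group. Lines, and for naive cells the sets S and K, are the replicates. If S and K differ in technical respects only, naive cells are a single source. The SE and p-values against naive cells would then count technical sets as replicates. Within groups and for the order of levels, limma was fitted to 32 arrays with 1 mean per set. P-values were adjusted by Benjamini-Hochberg over all genes, with a threshold of 0.05; tests are two-sided. Both fits were run on simulated data with independent noise, which does not mimic sets that share a parent line. The outcome is not given here. Depth does not apply to arrays, whose number limits the precision. Samples were grouped by their labels.

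The members and lists were chosen with earlier results of these data known. Named genes were the 5 members, up to 3 passing genes of a list or else the 2 with the smallest unadjusted p, the 3 genes most alike to a member, and genes said to be chosen after their values were seen. List genes given by single resistance are part of those the rule names. Alternatives changed the filter, features, normalization, fit, block and the sets or arrays included.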

Additional observations from a re-analysis of the deposited data

Results flagged for a closer look

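Of 65 groups of arrays examined for a sample far from the others, 1 stood out, and chance alone would mark about 1 in 20. It was TYRO3 in the 8 naive arrays, where 1 array of naive K had 7.03 and the next highest array had 6.64, a gap of 0.56 of the whole range.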

How the results depend on the processing

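Over the alternatives 800 member values were recomputed. Direction and side of the threshold held for 741, 14 newly passed, 2 no longer did and 43 changed sign, most of them from values near 0. The 4 high-imatinib line differences and the low-imatinib and nilotinib ones that passed held in all 13 of their alternatives. MERTK stayed above naive cells throughout, from 1.08 to 1.47 over all lines, with adjusted p from 7.96e-06 to 0.324. One member, MERTK, passed for all lines with arrays shifted to one median (1 of 5), for low imatinib with only the groups compared (1), and with 32 arrays and the set as a random block for all lines, low imatinib, high imatinib and nilotinib (1 each). That block fit rests on a correlation shared by all genes, and the fit to only the groups compared has fewer samples. The share of all genes that passed in these alternatives is not given here. A fit without 1 set has 1 set left in that group, whose spread is then not counted. Some of the 14 values that newly passed come from such fits.

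Signs turned under quantile normalization for TYRO3 over all lines (0.048) and between the low-imatinib lines (0.0085). Under the shift to one median they turned for TYRO3 over all lines (0.12), in high imatinib (0.0073) and in nilotinib against low imatinib (0.023), for PROS1 over all lines (0.091) and for MERTK between the nilotinib lines (-0.0069). With the technical axis taken out they turned for TYRO3 and GAS6 in low imatinib (-0.092 and -0.18), AXL in high imatinib (-0.10), TYRO3 and PROS1 in nilotinib (-0.18 and -0.26) and GAS6 in nilotinib against high imatinib (-0.053). There the members passing between naive K and naive S numbered 2. In the main fit 12.4% of all genes passed for that pair, and the share with the axis taken out is not given. The steps passing in either direction, in the order of the main fit, numbered 11. The cause was not tested.

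Leaving out 1 set gave ranges across 0. Over all lines they were -0.27 to 0.21 for PROS1 and -0.13 to 0.13 for TYRO3. Against naive cells they were -0.075 to 0.19 for TYRO3 and -0.23 to 0.30 for GAS6 in low imatinib, -0.72 to 0.82 for AXL, -0.22 to 0.045 for TYRO3 and -0.79 to 0.49 for PROS1 in high imatinib, and -0.11 to 0.15 for TYRO3 in nilotinib. For high against low imatinib they were -1.09 to 0.45 for AXL, -1.10 to 0.26 for MERTK and -0.46 to 0.82 for PROS1. For nilotinib against low imatinib TYRO3 gave -0.13 to 0.060. For nilotinib against high imatinib they were -0.14 to 1.40 for AXL, -0.81 to 0.55 for MERTK, -0.25 to 0.39 for GAS6 and -0.093 to 1.18 for PROS1. Leaving out 1 array gave -0.089 to 0.068 for TYRO3 between the low-imatinib lines, -0.00238 to 0.077 for MERTK between the nilotinib lines, -0.14 to 0.021 for GAS6 between the naive sets, and 0 to 1 passing members there. The share of all genes that passed without 1 array is not given.

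Line numbers are shared by the resistances. The differences of line 1 minus line 2 correlated over genes at 0.139 (low and high imatinib), 0.188 (low imatinib and nilotinib) and -0.201 (high imatinib and nilotinib). These values cannot show whether lines of the same number are related, and shared descent was not tested. With the number as a replicate block 0 members and 0 genes passed in the 3 comparisons between resistances, the same as without it. With the numbers crossed for nilotinib against high imatinib, chosen after seeing the data, the counts were also 0. Other features of a member could not be tried, since each has 1.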
